A study of Mus musculus with 12 samples.

Results

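The 8 genes described here encode the corticosteroid receptors and the chaperones that hold them ready for hormone: the receptor genes Nr3c1 and Nr3c2, the immunophilin genes Fkbp5 and Fkbp4, the cytosolic Hsp90 genes Hsp90aa1 and Hsp90ab1, and the co-chaperone genes Ptges3 and Stip1. They were found by gene name among 40597 loci of the deposited table, and each matched 1 locus that listed no other gene. The cultures were neurospheres, floating clusters of neural stem and progenitor cells, grown from hypothalamus of wild type C57Bl/6 fetuses at embryonic day 14.5 and treated at the third passage. Cultures of either sex were exposed for 4 hours to dexamethasone, a synthetic glucocorticoid, at 100 nM or to the same volume of ethanol, the vehicle. Each of the 4 groups had 3 biological replicates, which made 12 libraries of total RNA, and no group carried an engineered allele. The labels do not say what separates 1 replicate from another, so p-values reflect only the spread between these libraries, part of which may be technical. The comparison asks which parts of the receptor's own machinery changed in RNA level under the hormone.

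Without hormone, the glucocorticoid receptor, the product of Nr3c1, rests in a complex with Hsp90. Stip1 encodes Hop, which bridges Hsp70 and Hsp90 while the receptor is loaded, and Ptges3 encodes p23, which stabilises the closed, hormone-binding form. Either FKBP51, from Fkbp5, or FKBP52, from Fkbp4, then sits on Hsp90. FKBP51 lowers the receptor's affinity for hormone, whereas FKBP52 couples it to dynein and favours movement to the nucleus. Fkbp5 is itself a classical target of the hormone-bound receptor, which binds response elements in its introns, and the resulting short negative feedback is called the Fkbp5 loop. Nr3c2 encodes the mineralocorticoid receptor, which shares the chaperone system and binds natural glucocorticoids with high affinity.

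The sequences immediately before the RefSeq starts of Fkbp5, Fkbp4 and Fkbp14 are printed because Fkbp5 and Fkbp14 were the FK506-binding genes that rose and Fkbp4, the closest functional counterpart of Fkbp5, was not called. Each window holds the 250 bases before a start in GRCm38.p6, 5′ to 3′ on the gene's strand. Capitals mark matches, on either strand, to a CCAAT box (CCAAT), a GC box (GGGCGG) or the heat shock motif GAANNTTC.
Fkbp5, chr17:28486150-28486399, minus strand: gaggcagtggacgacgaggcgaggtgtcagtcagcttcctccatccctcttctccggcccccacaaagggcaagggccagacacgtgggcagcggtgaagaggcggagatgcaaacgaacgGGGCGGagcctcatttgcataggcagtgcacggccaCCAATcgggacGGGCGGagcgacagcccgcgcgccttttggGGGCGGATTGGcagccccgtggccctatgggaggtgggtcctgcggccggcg
Fkbp4, chr6:128438657-128438906, minus strand: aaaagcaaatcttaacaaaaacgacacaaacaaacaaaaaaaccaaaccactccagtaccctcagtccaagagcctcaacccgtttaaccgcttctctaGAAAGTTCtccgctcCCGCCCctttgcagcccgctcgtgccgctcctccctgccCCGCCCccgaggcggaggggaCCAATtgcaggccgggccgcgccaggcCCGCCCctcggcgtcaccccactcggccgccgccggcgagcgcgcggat
Fkbp14, chr6:54593175-54593424, minus strand: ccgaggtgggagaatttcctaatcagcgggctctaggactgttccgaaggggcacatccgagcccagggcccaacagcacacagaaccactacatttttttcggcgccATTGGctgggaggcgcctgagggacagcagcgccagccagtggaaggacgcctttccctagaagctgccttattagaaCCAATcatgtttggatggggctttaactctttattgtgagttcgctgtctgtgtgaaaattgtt

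The Fkbp5 window lies in an intron of the longer transcripts of Fkbp5 in GENCODE M21 and touches none of its exons. It held 3 GC boxes and 2 CCAAT boxes. The Fkbp4 window held 3 GC boxes, 1 CCAAT box and 1 heat shock motif from base -151 to base -144, counted back from the start, and 21 of its bases lie in Fkbp4 exons of GENCODE M21. The Fkbp14 window held 2 CCAAT boxes and shares 3 bases with a Fkbp14 exon. It lies within the gene, which reaches to 54597308 in GENCODE M21. A second RefSeq start of Fkbp14, with its window outside the gene at 54597345 to 54597594, had none of the motifs before it. The receptor's full 15-base element (AGAACA, 3 free bases, TGTTCT) and its 6-base arm AGAACA alone were searched on both strands in the same way and matched none of the 3 windows. Over 32851 RefSeq windows of this length, 0.00913% held the full element, 16.1% the arm, 6.69% the heat shock motif, 33.8% a CCAAT box and 32.7% a GC box. The full element contains the arm. A match here is a run of letters and not a measured binding site. Of the 8 genes, 5 were in the RefSeq table: Nr3c2, Fkbp5, Fkbp4, Ptges3 and Stip1.

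Values are FPKM, fragment numbers divided by transcript length and scaled per library, so levels of different genes within a library can be compared. How the libraries were scaled is not given. The FPKM of a library summed to between 4023670 and 12337900, of which protein-coding loci made up 3.227 to 10.25%. FPKM carry no counts, and the depth of the libraries is unknown. Loci above 1 FPKM numbered 13755 to 14826 per library. All 10 neural stem cell markers reached a mean of 1 FPKM, as did all 6 astrocytic and all 7 oligodendrocyte lineage markers and 4 of 8 neuronal markers. None of 6 microglial, 5 endothelial and 4 erythroid markers did, with Csf1r, Cdh5 and Hba-a1 below 0.1 FPKM. Of 5 mural or fibroblast and 5 pituitary markers, 1 each did, Acta2 at 27.9 FPKM and Pou1f1 at 2.08 FPKM. The summed neural stem cell markers ran from 5832 to 7542 FPKM in dexamethasone and from 6101 to 7471 FPKM in vehicle libraries. In such bulk RNA, fewer cells of a type and less RNA per cell cannot be told apart. The summed astrocytic markers ranged from 168.9 to 1556 FPKM, with overlap between all groups. Libraries number 2 of both male groups carried some RNA of Xist, a gene of female cells, at 14.1 FPKM under dexamethasone and 3.04 FPKM under vehicle, against at least 136 FPKM in every female library.

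Nr3c1, the glucocorticoid receptor gene, was moderately expressed in every library and was not called changed. Male vehicle cultures 1, 2 and 3 held 19.7, 19.8 and 16.1 FPKM, and male dexamethasone cultures held 16.8, 14.9 and 15.2 FPKM. Female vehicle cultures held 21.5, 20.2 and 19.3 FPKM, and female dexamethasone cultures 20.8, 19.1 and 14.5 FPKM. The treatment groups overlapped in both sexes, although each dexamethasone library stood below the vehicle library of the same sex and number in 6 of 6 cases, with ratios from 0.752 to 0.968. The averaged log2 difference was -0.20 (SE 0.09, 95% interval -0.40 to 0.01), with an unadjusted p of 0.0551 and an adjusted p of 0.375 in limma. The labels do not say that equal numbers mark a shared culture. A fall to 0.87 of the vehicle level in the ratio of means (16.9 ± 2.55 against 19.4 ± 1.79 FPKM, SD, n = 6) was therefore not separable from the spread between libraries.

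Nr3c2, the mineralocorticoid receptor gene, was the least abundant of the 8. Its deposited locus runs from 76605226 to 77245012 on chromosome 8, whereas the gene in GENCODE M21 starts at 76899442. The part of the values that comes from before the gene was not tested. This holds for the ratio of Nr3c1 to Nr3c2 as well. Vehicle cultures held 1.36, 1.62 and 1.96 FPKM in males and 1.56, 1.26 and 1.57 FPKM in females. Under dexamethasone, males held 2.00, 0.663 and 0.314 FPKM and females 1.41, 1.23 and 0.837 FPKM. The treatment groups overlapped in both sexes, and male dexamethasone library 1 was the highest of all 12 while libraries 2 and 3 of that group were the lowest. The averaged log2 difference was -0.35 (SE 0.20, 95% interval -0.79 to 0.10, limma adjusted p = 0.472). That scale adds 1 FPKM before the logarithm and so understates any change in a gene at this level.

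**Figure D1:**
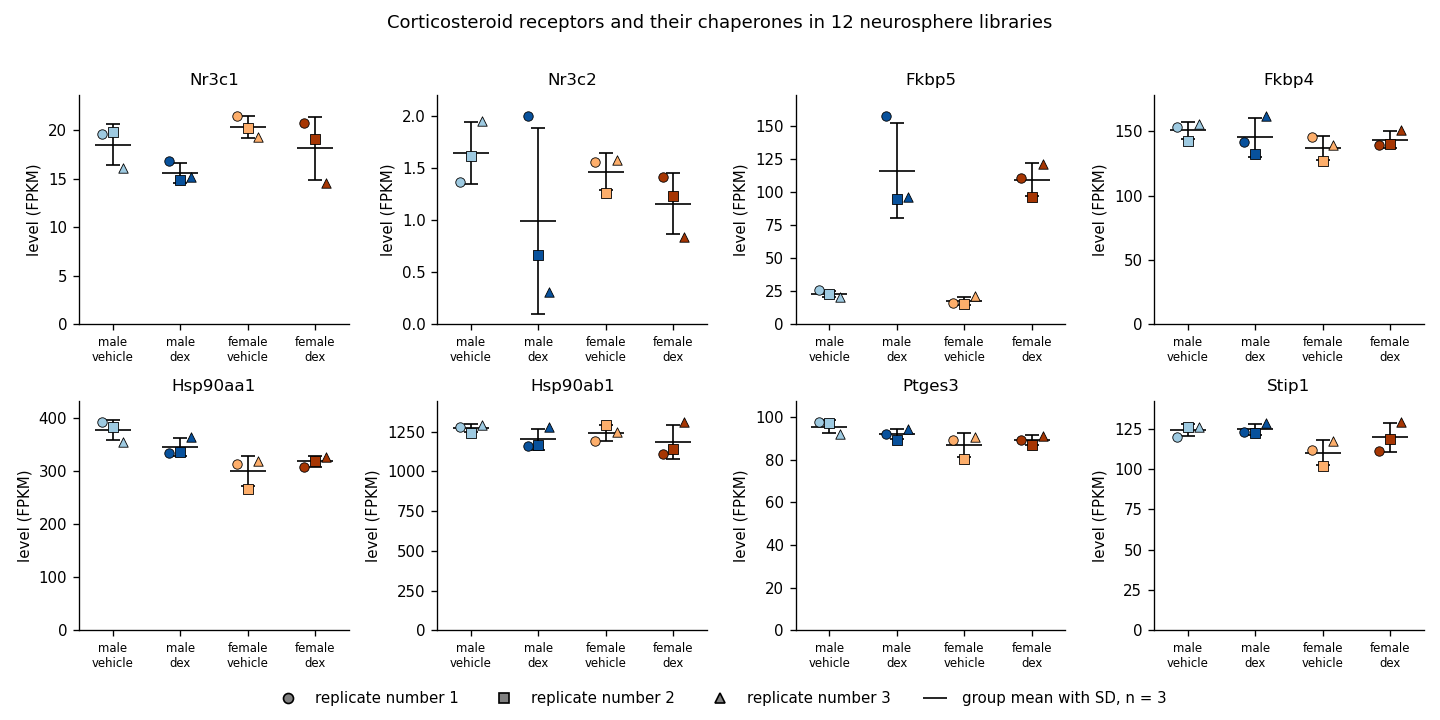
Level of each of the 8 genes in FPKM (vertical axes start at 0) in the 4 groups. Points are single libraries with a marker for each replicate number, and bars are group means with the SD of 3 libraries. Fkbp5 lies between 15.6 and 25.5 FPKM in vehicle and between 94.9 and 157 FPKM in dexamethasone libraries, while each of the other 7 genes has overlapping treatment groups.

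Fkbp5 rose in both sexes (chromosome 17, 28399012 to 28517524 in GRCm38, as deposited). Male vehicle cultures held 25.5, 23.0 and 20.7 FPKM and male dexamethasone cultures 157, 94.9 and 96.3 FPKM. Female vehicle cultures held 15.7, 15.6 and 21.0 FPKM and female dexamethasone cultures 111, 96.0 and 121 FPKM. Every dexamethasone library was above every vehicle library, with no overlap across the sexes either. Within a sex, the ratio between same-numbered libraries was 4.13 to 7.05, and the ratio of means was 5.04 in males and 6.27 in females. The log2 difference was 2.25 in males (SE 0.20, limma adjusted p = 0.000909), 2.59 in females (SE 0.20, adjusted p = 0.000352) and 2.42 on average (95% interval 2.10 to 2.73, adjusted p = 1.98e-05). Fkbp5 was the 1 gene of the 8 called in each of these comparisons, against 0.315% of 14931 loci called in males, 0.482% in females and 1.53% on average. In both sexes every dexamethasone library lay above every vehicle library for Fkbp5 and for none of the other 7 genes, as held for 1.41% of all loci. Fkbp5 was not called in males (adjusted p = 0.0818) when the male libraries were fitted alone. Without library 2 of the male dexamethasone or of the male vehicle group, the averaged difference was 2.48 and 2.42.

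No difference between the sexes was detected in the rise of Fkbp5. The interaction, the female effect minus the male effect, was 0.34 (SE 0.28, 95% interval -0.29 to 0.97, limma adjusted p = 1). None of the 8 genes was called in the interaction, with 0.0335% of all loci called. None had an unadjusted p under 0.05, which 219 of 14931 loci had. That interval still allows an effect in females larger by up to 0.97 on the log2 scale. An antisense gene of GENCODE M21, AC154912.1, shares 9958 bases with Fkbp5, and whether the counting used strand is not stated in the labels. The small RNA gene Gm22146 lies inside Fkbp5 on the opposite strand, with a listed value of 0 in the 6 vehicle libraries and a highest value of 2.27 FPKM under dexamethasone.

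Fkbp4, which encodes FKBP52, was not called in either sex. Male vehicle cultures held 154, 143 and 156 FPKM and male dexamethasone cultures 142, 132 and 162 FPKM. Female vehicle cultures held 145, 127 and 139 FPKM and female dexamethasone cultures 140, 140 and 151 FPKM. The groups overlapped, and dexamethasone was higher in 3 of 6 same-numbered comparisons. The averaged log2 difference was 0.01 (SE 0.06, limma adjusted p = 0.982), with a 95% interval of -0.14 to 0.15, far below the difference measured for Fkbp5. Gm10069 of GENCODE M21 overlaps the upstream window of Fkbp4.

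**Figure D2:**
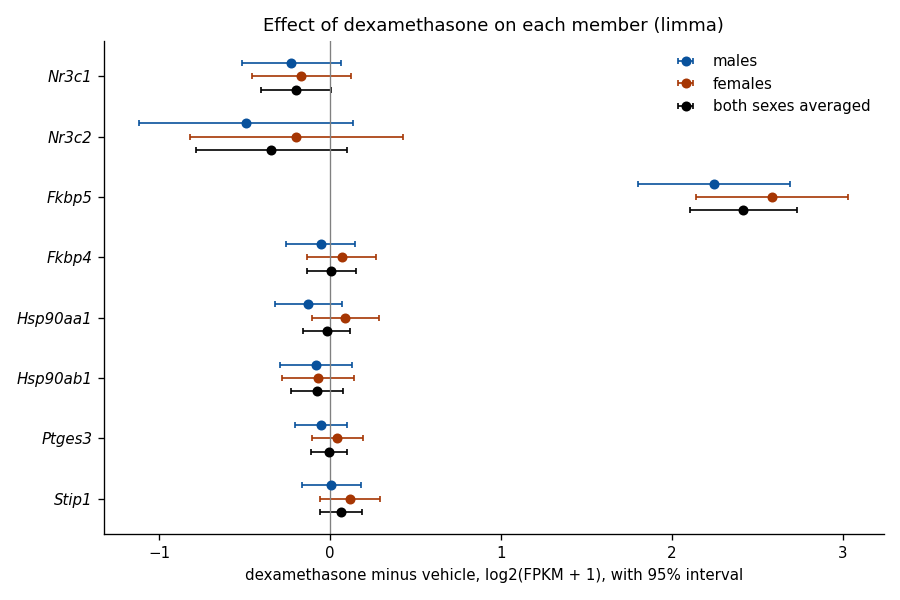
Dexamethasone minus vehicle for each gene on the log2(FPKM + 1) scale (horizontal axis) in males, in females and averaged, with 95% intervals from limma. The averaged interval of Fkbp5 runs from 2.10 to 2.73, and the averaged intervals of the other 7 genes include 0.

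The cytosolic Hsp90 genes were the most abundant of the set and were not called. Hsp90ab1, the constitutively expressed form, held 1279, 1246 and 1293 FPKM in male vehicle and 1158, 1169 and 1278 FPKM in male dexamethasone cultures. In females it held 1191, 1292 and 1251 FPKM under vehicle and 1113, 1140 and 1312 FPKM under dexamethasone. The groups overlapped, with dexamethasone lower in 5 of 6 same-numbered comparisons, and the averaged log2 difference was -0.08 (SE 0.07, 95% interval -0.23 to 0.07, limma adjusted p = 0.654). With quantile normalization this difference was -0.35 (adjusted p = 0.365).

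Hsp90aa1, the stress-inducible form, held 392, 382 and 355 FPKM in male vehicle and 333, 336 and 363 FPKM in male dexamethasone cultures. In females it held 313, 267 and 317 FPKM under vehicle and 307, 318 and 327 FPKM under dexamethasone. The treatment groups overlapped, and the averaged log2 difference was -0.02 (SE 0.06, 95% interval -0.16 to 0.12, limma adjusted p = 0.919). The difference was -0.13 in males and 0.09 in females, with an interaction of 0.22 (SE 0.12, unadjusted p = 0.109, adjusted p = 1). With quantile normalization the averaged difference was -0.19 (adjusted p = 0.344), that in males -0.30 and that in females -0.07, none of them called, so the sign in females turned with the scaling.

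Ptges3 and Stip1, the genes of p23 and Hop, were not called in either sex. Ptges3 ranged from 80.4 to 97.8 FPKM in the 6 vehicle libraries (median 91.4) and from 86.9 to 94.6 FPKM in the 6 dexamethasone libraries (median 90.5). Its averaged log2 difference was -0.01 (95% interval -0.11 to 0.10, limma adjusted p = 0.971). Stip1 ranged from 101.8 to 126.5 FPKM under vehicle (median 118.6) and from 111.5 to 129.3 FPKM under dexamethasone (median 122.9). Its averaged log2 difference was 0.06 (95% interval -0.06 to 0.19, limma adjusted p = 0.654). The groups overlapped for both genes. Transcripts matching part of a member, which could share its reads, were found for Hsp90aa1 (3 pseudogenes), Hsp90ab1 (1) and Ptges3 (2). Identity was 91 to 100% over 24 to 86.3% of the member's longest transcript. Of those with a deposited value, the highest averaged 0.437 FPKM.

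In order of level, Hsp90ab1 (mean 1259 FPKM over the 6 vehicle libraries) stood above Hsp90aa1 (338 FPKM), Fkbp4 (144 FPKM), Stip1 (117 FPKM), Ptges3 (91.2 FPKM), Fkbp5 (20.3 FPKM), Nr3c1 (19.4 FPKM) and Nr3c2 (1.56 FPKM). Under vehicle, Fkbp5 and Nr3c1 were the neighbours whose ranges over the 6 libraries overlapped. Fkbp4 and Stip1 met at their edges, with the lowest Fkbp4 value at 126.7 FPKM and the highest Stip1 value at 126.5 FPKM. Under dexamethasone Fkbp5 averaged 113 ± 24.3 FPKM (SD, n = 6). Its range from 94.9 to 157 FPKM then lay just above that of Ptges3 and overlapped those of Stip1 and Fkbp4, and no longer met that of Nr3c1, 14.5 to 20.8 FPKM.

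Ratios within each library set these genes against each other without a scaling factor. The ratio of Fkbp5 to Fkbp4 was 0.153 ± 0.018 in male vehicle, 0.808 ± 0.270 in male dexamethasone, 0.127 ± 0.022 in female vehicle and 0.761 ± 0.066 in female dexamethasone cultures (SD, n = 3). In male dexamethasone library 1, at 1.11, Fkbp5 RNA exceeded Fkbp4 RNA, and in the other 11 libraries it did not. The ratio was 5.54-fold higher under dexamethasone (log2 difference 2.47, higher in 6 of 6 same-numbered comparisons, exact two-sided permutation test within each sex, p = 0.005, the smallest that 400 arrangements can give, adjusted over 4 ratios 0.01). The ratio of Fkbp5 to Nr3c1 went from 1.25 ± 0.077 to 7.36 ± 1.74 in males and from 0.864 ± 0.198 to 6.23 ± 1.84 in females, 6.44-fold higher on average (exact permutation p = 0.005, adjusted 0.01). Both ratios set Fkbp5 over a gene that was not called, so their tests restate its rise and are not separate support.

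The ratio of Nr3c1 to Nr3c2 was between 8.25 and 16.04 in the 6 vehicle libraries. Under dexamethasone it was 8.39, 22.5 and 48.3 in males and 14.7, 15.5 and 17.4 in females, so the treatment groups overlapped in both sexes. The log2 difference was 0.53 (exact permutation p = 0.215, adjusted 0.287), and without male dexamethasone library 1 it was 0.86 (adjusted 0.02). That result therefore rests on 1 library in which Nr3c2 was at 2.00 FPKM, and with 1 FPKM added to both genes it was 0.15. The ratio of Hsp90aa1 to Hsp90ab1 was between 0.206 and 0.307 in all 12 libraries and did not separate the treatments (log2 difference 0.06, exact permutation p = 0.51, adjusted 0.51).

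**Figure D3:**
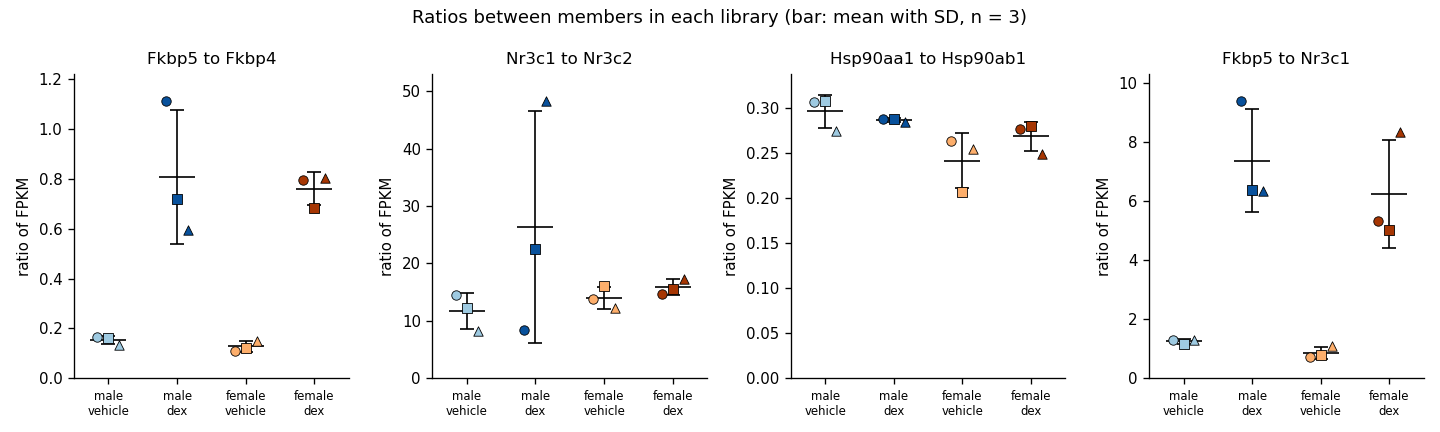
Ratio of FPKM between pairs of genes in each library (vertical axes start at 0), with the mean and SD of 3 libraries per group. The ratios of Fkbp5 to Fkbp4 and to Nr3c1 do not overlap between treatments, the ratio of Nr3c1 to Nr3c2 spreads from 8.39 to 48.3 in male dexamethasone cultures, and the ratio of Hsp90aa1 to Hsp90ab1 overlaps throughout.

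Among the other FK506-binding proteins, 12 of 15 genes passed the filter of a mean of 1 FPKM, 1 was called higher and none lower in the averaged effect, where 1.15% of all loci were called higher, and the list median was 0.08 against -0.01 over all loci. The gene called was Fkbp14, which encodes an endoplasmic reticulum isomerase of collagen folding outside the receptor complex. It lies on chromosome 6 at 54577604 to 54597308 in GENCODE M21, but its deposited locus runs on to 54645839. It held 5.91, 6.68 and 6.69 FPKM in male vehicle and 14.5, 16.7 and 19.4 FPKM in male dexamethasone cultures. Female cultures held 5.52, 6.21 and 7.05 FPKM under vehicle and 12.2, 18.3 and 16.2 FPKM under dexamethasone. Every dexamethasone library lay above every vehicle library, as held for 1.41% of all loci. The averaged log2 difference was 1.22 (SE 0.11, limma adjusted p = 0.000377), with 1.26 in males (adjusted p = 0.00716) and 1.18 in females (adjusted p = 0.00892). Fitted alone, neither sex gave a call (adjusted p = 0.0892 in males and 0.155 in females). Plekha8, on the opposite strand and sharing 2198 bases with Fkbp14, stood at 5.75 to 7.42 FPKM under vehicle and 5.50 to 6.93 FPKM under dexamethasone. The remaining 11 lay between -0.33 (Fkbp1a, the gene of FKBP12) and 0.30 (Fkbpl).

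Of 19 further Hsp90 co-chaperone genes, all tested, 2 were called higher and none lower in the averaged effect, with a median of 0.08. Over all loci, 1.15% were called higher. Cdc37l1, a relative of the kinase co-chaperone gene Cdc37, held 14.7, 15.4 and 12.7 FPKM in male vehicle and 21.2, 23.2 and 19.95 FPKM in male dexamethasone cultures. Female cultures held 16.4, 17.0 and 16.6 FPKM under vehicle and 25.7, 25.3 and 22.2 FPKM under dexamethasone. For Cdc37l1, as for 1.41% of all loci, every dexamethasone library lay above every vehicle library. The averaged log2 difference was 0.54 (SE 0.06, limma adjusted p = 0.00255). The deposited locus of Cdc37l1 runs to 29048003 on chromosome 19, past the end of the gene in GENCODE M21 at 29026681. Ak3, an adenylate kinase gene on the opposite strand, shares 5849 bases with Cdc37l1 in GENCODE M21. It stood at 43.3 to 57.6 FPKM under vehicle and 80.2 to 107 FPKM under dexamethasone. Without the strand setting, reads of Cdc37l1 and Ak3 cannot be told apart over those bases, and the part of Ak3 in the rise of Cdc37l1 was not tested.

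Ppp5c, which encodes the phosphatase PP5 that also docks on Hsp90 in receptor complexes, was called on average (log2 difference 0.25, SE 0.05, limma adjusted p = 0.0321). It held 80.2, 87.5 and 85.3 FPKM in male vehicle and 92.3, 95.2 and 86.9 FPKM in male dexamethasone cultures. In females it held 80.6, 84.2 and 83.6 FPKM under vehicle and 106, 106 and 116 FPKM under dexamethasone. The groups were apart in females and overlapped in males, with differences of 0.39 (adjusted p = 0.0438) and 0.11 (adjusted p = 0.837). Their interaction was 0.28 (SE 0.10, unadjusted p = 0.0164, adjusted p = 1). The averaged call of Ppp5c was lost in 11 of 12 fits with 1 library left out, with adjusted p up to 0.214 over all alternatives. The female call was lost in 12 of 12 such fits and held in 4 of all 19 alternatives, with adjusted p up to 0.303.

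The Hsp70 genes that hand the receptor to Hop, with their partners, held 12 genes, of which 9 were tested and none was called in limma or had an unadjusted p under 0.05. The median was -0.002. The largest differences were 0.86 for Hspa8 (adjusted p = 0.428), whose locus is joined with 3 small nucleolar RNA genes, and -0.37 for Hsph1 (adjusted p = 0.480). The stress-inducible Hsp70 genes Hspa1a and Hspa1b averaged 0.239 and 0.530 FPKM and were not tested. Neither Hsp90b1 of the endoplasmic reticulum (-0.12) nor Trap1 of mitochondria (0.02) was called or had an unadjusted p under 0.05. The same held for 7 regulators of Hsp90, among them the heat shock factor genes Hsf1 and Hsf2, where the largest differences were -0.18 for Usp19 and 0.12 for Smyd3.

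In the receptor transport list of dynein and importin genes, 1 of 17 was called higher and none lower, against 1.15% of all loci called higher. The list median was 0.01. Tnpo1, which encodes the nuclear import receptor transportin 1 (chromosome 13, 98839019 to 98926384 in GENCODE M21), held 87.8, 80.3 and 90.1 FPKM in male vehicle and 128, 108 and 123 FPKM in male dexamethasone cultures. Its female values were 76.7, 76.0 and 84.0 FPKM under vehicle and 111, 117 and 131 FPKM under dexamethasone. The treatments did not overlap, as held in this direction for 1.41% of all loci, and the averaged log2 difference was 0.53 (SE 0.07, limma adjusted p = 0.00309). By sex it was called in females (0.59, adjusted p = 0.0282) and not in males (0.47, adjusted p = 0.0974), and the interaction of 0.12 was not called (adjusted p = 1). The female call of Tnpo1 held in 9 of 19 alternatives and was lost in 7 of 12 fits with 1 library left out, with adjusted p up to 0.168 over all alternatives. Ipo13, the gene of an importin reported to carry the receptor, differed by -0.34 (adjusted p = 0.305).

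Genes that make, inactivate or export corticosteroids were mostly near or at 0. Of 13, 4 passed the filter, and none was called in limma. In the averaged effect 1 of the 4 had an unadjusted p under 0.05, as had 2031 of 14931 loci. That gene was H6pd, which supplies NADPH to the enzyme encoded by Hsd11b1. It held 0.853, 0.796 and 0.853 FPKM in male vehicle and 2.34, 1.35 and 2.08 FPKM in male dexamethasone cultures. In females it held 1.16, 0.952 and 1.15 FPKM under vehicle and 2.10, 1.57 and 2.45 FPKM under dexamethasone. The treatments did not overlap, as held in this direction for 1.41% of all loci. The averaged log2 difference of 0.60 still missed the threshold (SE 0.13, adjusted p = 0.0523) and passed it in 4 of 17 alternatives. Hsd11b1, which regenerates active hormone, averaged 0.878 FPKM, and Hsd11b2, which inactivates it, averaged 0.0544 FPKM. Abcb1b, an export pump gene, differed by 0.22 (adjusted p = 0.462).

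Of the 7 other receptors of the same nuclear receptor family, only Esrra passed the filter, at a mean of 19.4 FPKM with a difference of 0.03 (adjusted p = 0.944; none of the family had an unadjusted p under 0.05). The estrogen receptor genes Esr1 and Esr2 averaged 0.273 and 0.158 FPKM and the progesterone receptor gene Pgr 0.0358 FPKM, against 18.2 FPKM for Nr3c1. As a reference, 10 of 12 glucocorticoid-induced genes were called higher on average, against 1.15% of all loci. The list median was 1.85 against -0.01 over all loci. That list was chosen with responses of these cultures known, and is not independent evidence. Fkbp5, at 2.42, lay among them, and Sgk1 and Dusp1 were the reference genes not called.

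**Figure D4:**
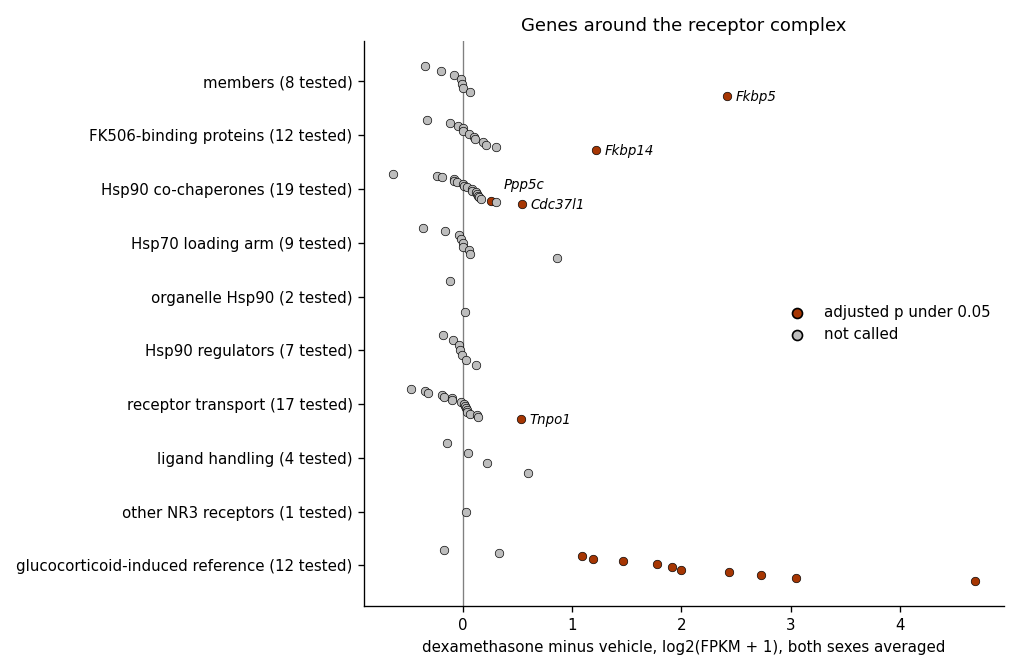
Averaged dexamethasone minus vehicle on the log2(FPKM + 1) scale (horizontal axis) for every tested gene of each list (vertical axis), with genes at a limma adjusted p under 0.05 in red and the others in grey. Outside the reference list the red points are Fkbp5 at 2.42, Fkbp14 at 1.22, Cdc37l1 at 0.54, Tnpo1 at 0.53 and Ppp5c at 0.25.

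Female and male cultures were compared under each treatment. None of the 8 genes was called by limma, against 0.0737% of loci under vehicle and 0.067% under dexamethasone. An unadjusted limma p under 0.05 was held by 728 of 14931 loci under vehicle and by 439 under dexamethasone. Of the 8 genes, 1 was among them under vehicle and none under dexamethasone. That gene was Hsp90aa1, lower in female vehicle cultures by a log2 difference of -0.33 (SE 0.09, 95% interval -0.53 to -0.14, unadjusted p = 0.00354, adjusted p = 0.892). Every female library of Hsp90aa1 lay below every male library under vehicle and again under dexamethasone, where the difference was -0.12 (adjusted p = 1). Ptges3 and Stip1 also showed no overlap under vehicle, females being lower, with differences of -0.14 and -0.17 (adjusted p = 0.892 for each). Among all loci, 3.54% lay lower in every female library than in every male one under vehicle, and 1.92% under dexamethasone. Fkbp5 differed by -0.39 under vehicle (95% interval -0.84 to 0.05, adjusted p = 0.892) and by -0.05 under dexamethasone (adjusted p = 1). Nr3c1 differed by 0.13 and 0.19 (adjusted p = 0.912 and 1).

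Similarity of pattern was described by Pearson's r of log2(FPKM + 1) over the 12 libraries, among 8115 other protein-coding loci averaging 5 FPKM or more. Libraries share a treatment and a sex, so these values carry no test. The genes most like Fkbp5 were Megf9 (r = 0.994), Ada (0.988), Fam107a (0.983), Smc5 (0.981) and Zbtb16 (0.979), with averaged log2 differences of 0.78, 2.27, 4.69, 0.48 and 3.05. Their order by similarity was not their order by size of response. With group means removed the closest were Zkscan8 (0.954), Tor1aip2 (0.923), Esyt2 (0.923), Vps13a (0.904) and Wwp1 (0.900), none of which was among the first 5.

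For Nr3c1 the closest patterns included Daglb (0.868), Rabgap1l (0.867), Nmt2 (0.865) and Bloc1s5 (0.853), with averaged differences between -0.29 and -0.08. With group means removed they were Ankle2 (0.983), Fam86 (0.969), 1110065P20Rik (0.941), Pmp22 (0.941) and Ppp2r3c (0.934). For Hsp90aa1 the closest were Hn1l (0.955), its fellow chaperone gene Ptges3 (0.946), Cse1l (0.924), Pola2 (0.895) and Ruvbl1 (0.895). With group means removed, Cse1l (0.942), Rbbp8 (0.922), Hspa5 (0.919), Ptges3 (0.915) and Amd1 (0.910) were closest. Hsp90aa1 and Ptges3 thus followed each other from library to library within groups as well as across them. Between Nr3c1 and Hsp90ab1 the within-group value was -0.79, and between Fkbp5 and Fkbp4 it was 0.02.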

How the data were processed

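RNA of 12 neurosphere cultures was measured by sequencing, with 1 column per library in the table and each library run on 2 lanes. The authors deposited FPKM values, and the submitters' processing notes name Cuffdiff 2.2.1, Cufflinks 2.2.1, TopHat2 2.0.9 and the build GRCm38. Annotation, strand setting and scaling: not given in the sources used here. After adding 1 FPKM and taking log2, each locus was tested in limma 3.58.1 under R 4.3.3 (1 mean per group, all 12 libraries, mean-variance trend, two-sided), with Benjamini-Hochberg adjustment over the 14931 loci averaging 1 FPKM or more and calls at an adjusted p under 0.05. The averaged effect is the mean of the male and female effects. Every adjusted p is from limma except those of the 4 ratios, tested by exact permutation of treatment within sex. All 8 genes passed the filter. A log2 difference is that of log2(FPKM + 1), which shrinks changes at low levels, and the unknown depth allows no counting interval. The code was tested on simulated data.

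Named genes are the 8 genes, the called genes of each pathway list or else its 2 largest changes, and the 5 loci most like Fkbp5, Nr3c1 and Hsp90aa1. Ipo13, Fkbp1a, Fkbpl, abundance examples, reference genes and neighbours on the opposite strand were named after their values were seen. A few items under these rules are not reported here. The genes and lists were chosen with earlier results of these data known. The lists held 105 entries: Tah1 had no locus, some genes such as Fkbpl are in 2 lists, and of 2 Ipo7 loci the higher was used. Similar transcripts were sought with BLAST 2.17.0 (90% identity over 20% of the longest transcript). Coordinates count from 1. The alternatives were a pseudocount of 0.1, no filter, a mean of at least 5 FPKM, quantile normalization, scaling to the protein-coding sum, the replicate number as a block, each sex alone, and each library left out.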

Additional observations from a re-analysis of the deposited data

How the results depend on the processing

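Fkbp5 kept its averaged call in all 18 alternatives (2.30 to 2.48) and its call in females in all 19, and lost the male call only when males were fitted alone, where 0 of the 8 genes were called. No other of the 8 genes was called in any alternative or contrast, and no called value changed sign. Fkbp14, Cdc37l1 and Tnpo1 kept their averaged calls in all 18 alternatives and Ppp5c in 5. Whether the shared replicate numbers mark pairs was not settled, and the main tests did not use them as pairs. With group means removed, same-numbered dexamethasone and vehicle libraries of a sex correlated at 0.0819 to 0.167. Those of unlike number correlated at -0.147 to 0.0338, so each library correlated best with its own number. With the replicate number as a block, 148 loci were called in males (47 without it), 187 in females (72), 804 on average (229) and 8 in the interaction (5). The averaged split was then 420 higher and 384 lower, against 171 and 58 without the block and 132 and 78 with protein-coding scaling. The blocked ratios of Fkbp5 to Fkbp4 (2.47) and to Nr3c1 (2.69) had an adjusted p of 0.0625, as 64 sign flips allow no p below 0.03125. Dusp1, not called on average without the block (adjusted p = 0.280), was called with it (adjusted p = 0.0423). Fitted alone, males gave 18 calls and females 33. Leaving out each library in turn gave 28 to 49 calls in males, 31 to 74 in females, 146 to 215 on average, 4 to 14 in the interaction and 9 to 23 between the sexes under vehicle. The lowest came without male vehicle library 2 (28; 29 and 31 without libraries 1 and 3), and female dexamethasone library 1 (31 and 146; 45 and 38 in females without female dexamethasone or vehicle library 3). The interaction gave 14, 11, 10, 10, 9 and 8 without female vehicle library 1 or 2, female dexamethasone library 2, male dexamethasone library 1 or 3 and male vehicle library 1, and the sexes under vehicle gave 23 without female vehicle library 1. The log2 ratio of Nr3c1 to Nr3c2 ran from 0.23 to 0.86 with 1 library left out. The cause of these shifts was not tested. Depth is unknown, so its limit on Nr3c2, near 1 FPKM, cannot be given.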
